A study of Mus musculus with 6 samples.

Results

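The enzymes described here write and erase the chemical marks of chromatin: the lysine methyltransferases named Kmt, Setd or Ezh, the lysine demethylases named Kdm, the acetyltransferases named Kat with Ep300 and Crebbp, the deacetylases named Hdac and Sirt, and the DNA-modifying Dnmt and Tet genes. They were taken by gene symbol from the protein-coding genes of the table of all genes, which gave 72 of 53465 genes, with no use of their values. RNA of the right hippocampus was sequenced in male C57BL/6J mice, in 3 samples taken after transient middle cerebral artery occlusion (tMCAO) and 3 samples of the Sham group. For tMCAO, a filament in the right internal carotid artery blocked the flow for 50 min and was then withdrawn. All mice were perfused with cold saline before dissection. The sources used here give neither the interval between occlusion and sampling, nor the age of the mice, nor what the Sham operation comprised. The labels do not say that each sample is a separate animal, so the p-values may reflect technical spread alone.

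Acetyl groups on histone tails loosen chromatin and are added by acetyltransferases and removed by deacetylases. Methyl groups on lysines mark active or silent chromatin depending on the residue: methylation of lysine 4 of histone H3 (H3K4) accompanies active promoters and enhancers, while that of H3K9, H3K27 and H4K20 accompanies silent chromatin, each with its own methyltransferases and demethylases. DNA methyltransferases place methyl groups on cytosines of CpG sites and Tet enzymes oxidise them. In neurons these enzymes are known for their part in activity-dependent transcription and memory, and in macrophages and microglia several of them are known regulators of inflammatory genes.

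The values are the authors' FPKM, which are scaled per length of gene, so that levels of different genes can be set side by side. Reads assigned to genes ran from 57537496 to 66016731 per tMCAO library and from 38907444 to 46145320 per Sham library, which left the Sham libraries all shallower than the tMCAO libraries. Sham 2 and tMCAO 3 stood apart in markers of neighbouring tissue: 6 striatal neuron genes summed to 301 FPKM in tMCAO 3 and 334 FPKM in Sham 2, against 46.8 to 75.1 FPKM in the other libraries, and 6 choroid plexus genes summed to 9.66 and 25.3 FPKM there, against 353 to 730 FPKM elsewhere. Genes of hippocampal subfields were present throughout, summing to 65.1 to 95.4 FPKM in tMCAO and 74.2 to 91.8 FPKM in Sham. Of these 6 genes, 1 was lower in tMCAO. Of 6 neuronal markers, 0 were called (774 to 1041 FPKM in sum in tMCAO, against 784 to 888 FPKM in Sham). Of 6 microglial markers, 3 were lower in tMCAO (87.5 to 111 FPKM in sum, against 116 to 132 FPKM in Sham). Of 6 astrocyte markers, 1 was higher in tMCAO (394 to 466 FPKM in sum, against 339 to 367 FPKM in Sham). The part of these marker lists in the enzymes' changes was not tested. In bulk tissue, fewer cells of a type and less RNA per cell cannot be told apart.

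Of the 72 enzymes, 69 had a mean of at least 0.5 FPKM over the 6 libraries and were tested, and 9 of these changed after tMCAO: Ezh2, Kdm6b and Kdm3a were higher, and Hdac9, Setd7, Kmt5c, Kmt2a, Kmt2c and Sirt5 were lower. The test was limma on log2(FPKM + 1) over 17561 genes with a threshold of 0.05 on the Benjamini-Hochberg adjusted p, and a fold change on this scale understates that of genes with low FPKM. These 9 are 13.04% of the tested enzymes, against 16.2% of all tested genes (8.93% higher and 7.28% lower), so the share called lay near that of the transcriptome. By family, 1 methyltransferase rose and 4 fell of 18, 2 demethylases rose of 18, 1 deacetylase fell of 11, 1 sirtuin fell of 7, and none of 10 acetyltransferases, 2 Dnmt genes and 3 Tet genes passed. The median log2 fold change of the enzymes was -0.02, against 3.06e-05 over all genes, and the median of its absolute size was 0.17, against 0.19. The largest absolute change was 0.72 (Hdac9). Groups did not overlap in 28 enzymes (40.6%), 8 of them higher and 20 lower in tMCAO, against 43.4% of all genes (23.1% higher and 20.3% lower). After rescaling to equal sums the enzymes again split into 3 higher and 6 lower, whereas the split over all genes was 1052 higher and 1596 lower in place of 1569 and 1278.

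**Figure D1:**
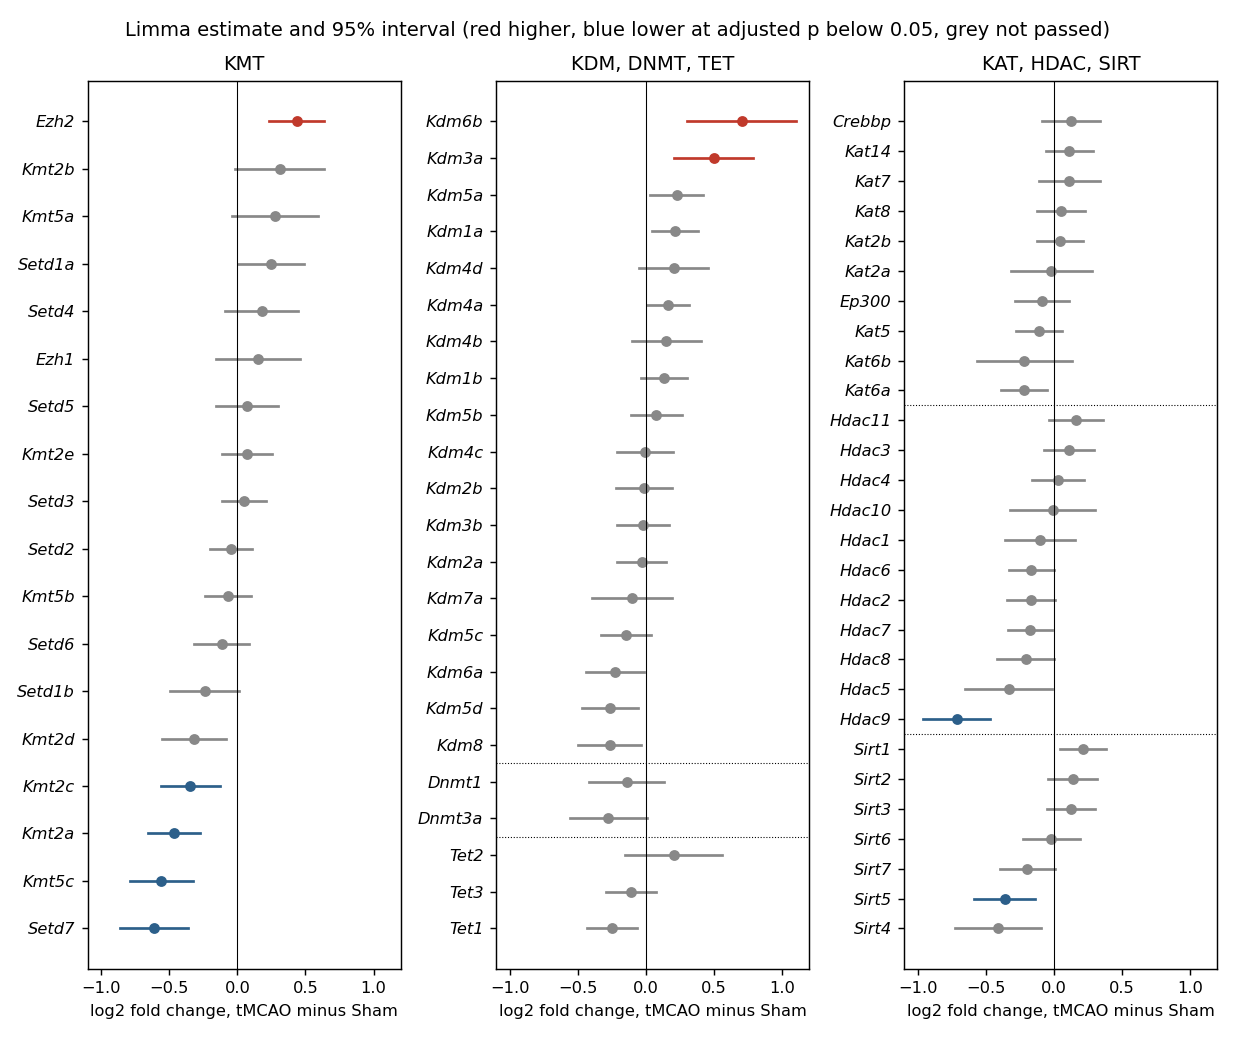
Limma log2 fold change (tMCAO minus Sham) of the 69 tested enzymes with 95% intervals, by family. The 9 coloured genes passed the threshold, with log2 fold changes from -0.72 (Hdac9) to 0.70 (Kdm6b). The sizes of the other estimates overlap with these: Sirt4 did not pass at -0.41, whereas Kmt2c passed at -0.35.

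These calls depended on the Sham libraries. Without Sham 1 and without Sham 3, limma called 0 of the 69 enzymes (12 and 13 at an unadjusted p below 0.05, against 24 with all libraries), and without Sham 2 it called Hdac9 alone (15). Over all 17561 genes the calls then numbered 124, 75 and 419. Genes at an unadjusted p below 0.05 numbered 4631, 4382 and 4879, against 6317 with all libraries. Without tMCAO 1, 2 and 3 the enzymes called numbered 5, 8 and 11. With both Sham 2 and tMCAO 3 left out, which held the high striatal and low choroid plexus markers, the enzymes called were Hdac9, Setd7 and Kmt2a (lower) and Kdm6b and Kdm3a (higher). Directions did not change for any of the 9 under any alternative. With 3 libraries in each group the exact two-sided permutation test cannot give p below 0.10, and it gave 0.10 for each of these 9 genes.

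**Figure D2:**
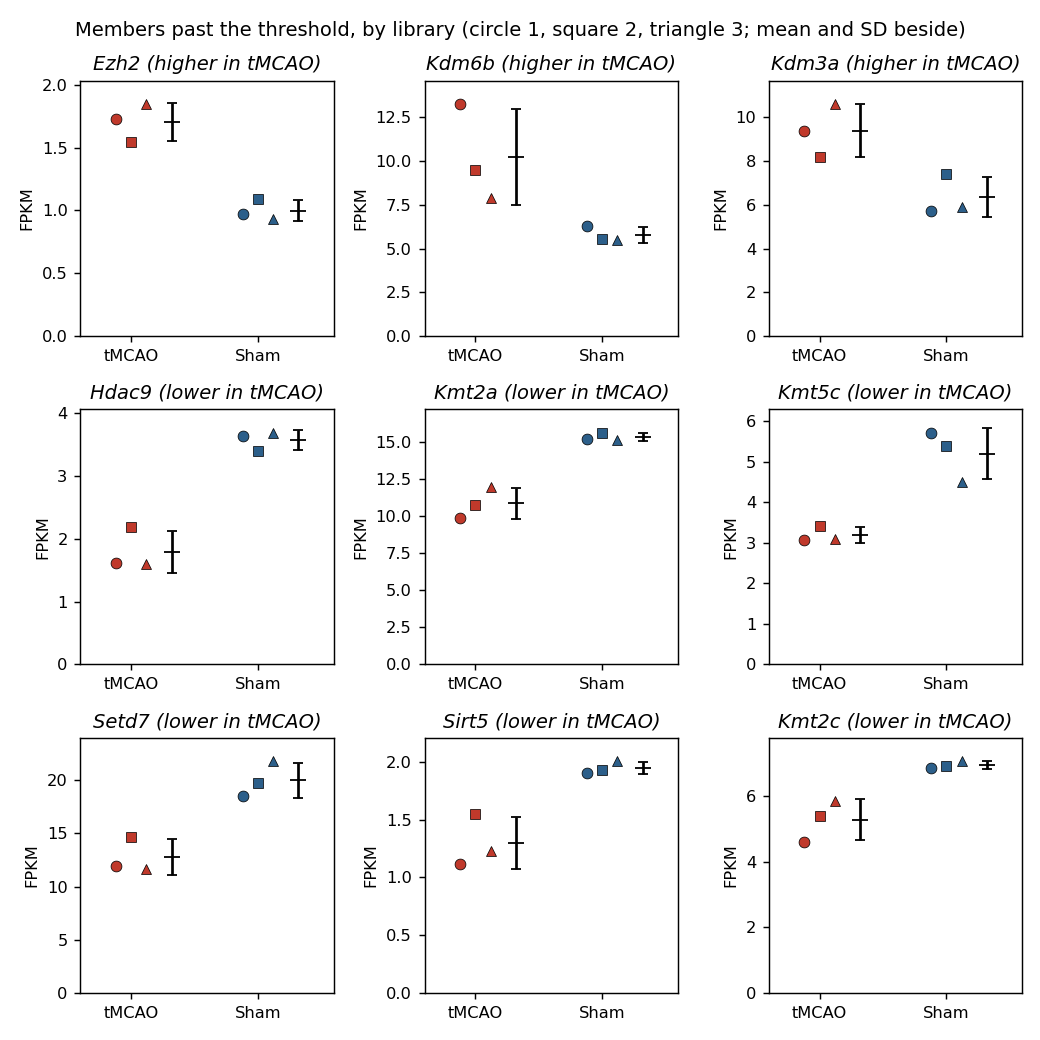
FPKM of the 9 enzymes past the threshold in each library, with the mean and SD (n = 3) beside the points. In each panel the tMCAO libraries lie apart from the Sham libraries: above them for Ezh2, Kdm6b and Kdm3a, and below them for the other genes.

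The promoters of these genes are shown for their CpG content, since CpG sites are the substrate of Dnmt and Tet enzymes. RefSeq promoters (250 bases before to 50 after a start, build GRCm38.p6) were found for 59 of the 72 enzymes by symbol. Among their 85 promoters, 70 (82.4%) held at least 10 CpG sites, with a median of 22, whereas 43.5% of all 32851 promoters did, with a median of 7. The motif GGGCGG, read on both strands, was in 63.5% of the enzymes' promoters and in 35.7% of all promoters. All promoters here are those of 27025 genes, whether expressed in these libraries or not. The shares among promoters of expressed genes were not computed, so neither difference can be called particular to the enzymes. Hdac9 was among the exceptions, with 0 CpG sites in the promoter at its annotated start and 3 in a second promoter. Kdm3a has 3 promoters in this table, with 24, 40 and 0 sites, and the first is shown. The 4 below are Hdac9 (chr12:34917046-34917345, minus strand, 0 CpG sites), Kmt2c (chr5:25498734-25499033, minus strand, 56 sites), Ezh2 (chr6:47594981-47595280, minus strand, 31 sites) and Kdm3a (chr6:71632868-71633167, minus strand, 24 sites), written 5′ to 3′ with each CpG site in capitals. The Ezh2 start in RefSeq lies 311 bases from the start of the gene in GENCODE M21.
Hdac9: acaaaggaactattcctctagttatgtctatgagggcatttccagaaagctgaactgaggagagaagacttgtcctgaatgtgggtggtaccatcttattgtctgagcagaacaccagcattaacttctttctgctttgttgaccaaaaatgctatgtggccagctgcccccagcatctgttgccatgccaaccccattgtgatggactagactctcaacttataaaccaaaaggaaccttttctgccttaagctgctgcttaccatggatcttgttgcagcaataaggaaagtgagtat
Kmt2c: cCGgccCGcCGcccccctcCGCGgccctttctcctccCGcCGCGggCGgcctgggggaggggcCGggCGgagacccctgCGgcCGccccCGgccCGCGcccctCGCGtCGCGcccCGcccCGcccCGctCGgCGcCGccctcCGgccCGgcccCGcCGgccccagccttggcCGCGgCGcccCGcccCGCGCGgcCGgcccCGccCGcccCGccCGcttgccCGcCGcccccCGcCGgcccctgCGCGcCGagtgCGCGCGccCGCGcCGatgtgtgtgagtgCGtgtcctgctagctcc
Ezh2: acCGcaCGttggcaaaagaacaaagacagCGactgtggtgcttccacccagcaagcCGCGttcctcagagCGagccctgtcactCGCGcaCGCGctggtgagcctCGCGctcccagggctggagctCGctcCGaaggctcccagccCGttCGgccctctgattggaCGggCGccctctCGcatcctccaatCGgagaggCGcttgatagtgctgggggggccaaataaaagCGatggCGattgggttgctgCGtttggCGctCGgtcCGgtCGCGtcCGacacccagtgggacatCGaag
Kdm3a: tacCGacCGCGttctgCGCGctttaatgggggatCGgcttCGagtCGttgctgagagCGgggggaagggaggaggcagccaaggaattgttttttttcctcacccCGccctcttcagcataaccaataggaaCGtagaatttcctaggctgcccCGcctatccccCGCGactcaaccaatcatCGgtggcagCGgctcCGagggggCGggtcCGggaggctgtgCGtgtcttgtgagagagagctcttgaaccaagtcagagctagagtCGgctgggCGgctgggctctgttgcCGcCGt
The genes that rose and those that fell both include promoters rich in CpG sites (Ezh2 and Kdm3a rose, Kmt2c fell), and the Hdac9 promoter has no capitals.

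For H3K27, a methyltransferase and a demethylase of the same residue were both higher after tMCAO. Ezh2 (ENSMUSG00000029687, chromosome 6, 47530139 to 47595341, minus strand) encodes a catalytic subunit of Polycomb repressive complex 2, which methylates H3K27. It was at 1.72, 1.54 and 1.84 FPKM in tMCAO 1, 2 and 3, against 0.968, 1.09 and 0.931 FPKM in Sham 1, 2 and 3. The groups did not overlap (log2 fold change 0.44, SE 0.08, limma adjusted p = 0.023), and the ratio of mean FPKM was 1.71. Its call was lost without Sham 1, Sham 2, Sham 3 or tMCAO 1 and without Sham 2 and tMCAO 3 together (adjusted p up to 0.10), and Gm26625 on the opposite strand shares 2.61% of its exons. Ezh1, the paralogous subunit that predominates in non-dividing cells, was at 8.89, 12.0 and 12.96 FPKM in tMCAO 1, 2 and 3, against 10.02, 9.62 and 10.2 FPKM in Sham 1, 2 and 3. Its groups overlapped (log2 fold change 0.15, SE 0.13, limma adjusted p = 0.44). In every library Ezh1 was the more abundant of the pair per length. For 6 markers of dividing cells the sum was 16.5 to 17.0 FPKM in tMCAO and 12.3 to 13.4 FPKM in Sham. Only 1 of the 6 was expressed enough to be tested, so this gene makes up most of each sum, and it was higher. The part of dividing cells in the result was not tested.

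Kdm6b (ENSMUSG00000018476, chromosome 11, 69398508 to 69413675, minus strand), also called JMJD3, is an H3K27 demethylase known to be induced by inflammatory signals in macrophages. It was at 13.2, 9.49 and 7.91 FPKM in tMCAO 1, 2 and 3, against 6.30, 5.53 and 5.46 FPKM in Sham 1, 2 and 3. All tMCAO libraries were above all Sham libraries, with tMCAO 1 the highest and tMCAO 3 the nearest to Sham (log2 fold change 0.70, SE 0.17, limma adjusted p = 0.036, ratio of means 1.77). Leaving out tMCAO 2, Sham 1, Sham 2 or Sham 3 ended the call (adjusted p up to 0.12). Markers of neutrophils were also highest in tMCAO 1 (32.4 FPKM in sum, against 5.06 and 3.63 FPKM in tMCAO 2 and 3 and 1.99 to 2.81 FPKM in Sham). None of the 3 tested neutrophil markers passed. Monocyte and macrophage markers summed to 9.90 to 13.8 FPKM in tMCAO and 5.70 to 7.11 FPKM in Sham, 1 of 4 tested was higher, and the part of both lists in the result was not tested. The antisense gene Kdm6bos, which shares 4.11% of the exons of Kdm6b, had 11.0, 7.79 and 6.41 FPKM in tMCAO 1, 2 and 3 and 4.50, 4.67 and 4.36 FPKM in Sham 1, 2 and 3 (log2 fold change 0.74, SE 0.17, limma adjusted p = 0.032). Whether the counting used strand is not known here, and without it reads of the shared stretch cannot be told apart. Kdm6a (UTX), the X-linked H3K27 demethylase, had 3.44, 3.42 and 4.21 FPKM in tMCAO 1, 2 and 3, against 4.40, 4.58 and 4.42 FPKM in Sham 1, 2 and 3. It lay lower in tMCAO without overlap and did not pass (log2 fold change -0.22, SE 0.09, limma adjusted p = 0.12), but passed without tMCAO 3 and with library weights.

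Kmt2a and Kmt2c fell among the 6 H3K4 methyltransferases of the trithorax type, where 7.28% of all genes were called lower, and none of the 6 rose. Kmt2a (ENSMUSG00000002028, chromosome 9, 44803355 to 44881296, minus strand), known as MLL1, was at 9.87, 10.8 and 11.9 FPKM in tMCAO 1, 2 and 3, against 15.2, 15.7 and 15.2 FPKM in Sham 1, 2 and 3. The Sham libraries lay close together and all tMCAO libraries were well below them (log2 fold change -0.47, SE 0.08, limma adjusted p = 0.018, lost without Sham 1, 2 or 3 with adjusted p up to 0.082). Its antisense neighbour AC061963.1 shares 2.27% of the exons. Kmt2c (ENSMUSG00000038056, chromosome 5, 25271798 to 25498783, minus strand) or MLL3, which methylates H3K4 at enhancers, had 4.60, 5.38 and 5.83 FPKM in tMCAO 1, 2 and 3, against 6.84, 6.92 and 7.06 FPKM in Sham 1, 2 and 3. The groups did not overlap and tMCAO 1 was the lowest (log2 fold change -0.35, SE 0.09, limma adjusted p = 0.046). This call was lost when Sham 1, 2 or 3, tMCAO 1 or tMCAO 2 was left out, without both Sham 2 and tMCAO 3, and without a filter (adjusted p up to 0.16).

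Kmt2d (MLL4), the closest relative of Kmt2c, had 5.61, 6.77 and 7.36 FPKM in tMCAO 1, 2 and 3, against 8.14, 8.53 and 8.52 FPKM in Sham 1, 2 and 3. It was lower without overlap and missed the threshold (log2 fold change -0.32, SE 0.10, limma adjusted p = 0.070), and it passed without tMCAO 3 and with library weights. Kmt2b, the closest relative of Kmt2a, was not lower: it had 12.4, 9.44 and 14.3 FPKM in tMCAO 1, 2 and 3, against 9.22, 9.79 and 9.13 FPKM in Sham 1, 2 and 3. Its groups overlapped (log2 fold change 0.31, SE 0.14, limma adjusted p = 0.15), and it passed as higher without tMCAO 2. Setd1b had 3.58 ± 0.563 FPKM in tMCAO and 4.39 ± 0.176 FPKM in Sham and Setd1a 6.02 ± 0.785 FPKM in tMCAO and 4.91 ± 0.328 FPKM in Sham (SD, n = 3 each; adjusted p = 0.15 and 0.14). For Setd1a 52.3% of the exon length is shared with other genes, mainly Gm49388 on the same strand, so its level is uncertain. Kmt2e, the most abundant Kmt2 gene per length, had 16.9 ± 1.42 FPKM in tMCAO and 16.0 ± 0.425 FPKM in Sham (adjusted p = 0.56). Setd5 lay at 9.80 ± 1.34 FPKM in tMCAO and 9.23 ± 0.0916 FPKM in Sham (adjusted p = 0.63).

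Setd7 (ENSMUSG00000037111, chromosome 3, 51515319 to 51560879, minus strand), which adds a methyl group to H3K4 in vitro and to several non-histone proteins, fell as well. It had 12.0, 14.7 and 11.6 FPKM in tMCAO 1, 2 and 3, against 18.5, 19.7 and 21.8 FPKM in Sham 1, 2 and 3. The highest tMCAO library was below the lowest Sham library (log2 fold change -0.61, SE 0.11, limma adjusted p = 0.018, ratio of means 0.638), and the call was lost without Sham 1, 2 or 3 (adjusted p up to 0.082).

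None of the 6 H3K4 demethylases passed limma, and 3 had an unadjusted p below 0.05, against 6317 of all 17561 tested genes. Kdm1a (LSD1), which demethylates H3K4 within corepressor complexes, had 14.2, 12.8 and 12.6 FPKM in tMCAO 1, 2 and 3, against 11.3, 11.2 and 11.2 FPKM in Sham 1, 2 and 3. It was higher in each tMCAO library than in each Sham library, which lay close together (log2 fold change 0.22, SE 0.07, limma adjusted p = 0.078), and it passed with library weights only. Kdm5a was likewise higher without overlap, with 5.49, 4.57 and 5.14 FPKM in tMCAO 1, 2 and 3, against 4.17, 4.18 and 4.16 FPKM in Sham 1, 2 and 3 (log2 fold change 0.23, SE 0.08, limma adjusted p = 0.098). Kdm5d, the Y-linked H3K4 demethylase, was lower without overlap, with 1.92, 2.36 and 2.33 FPKM in tMCAO 1, 2 and 3, against 2.83, 2.76 and 2.92 FPKM in Sham 1, 2 and 3 (log2 fold change -0.26, SE 0.09, limma adjusted p = 0.080, past the threshold with library weights and with voom on recovered reads). Its X-linked homologue Kdm5c had 8.37 ± 0.670 FPKM in tMCAO and 9.35 ± 0.284 FPKM in Sham and overlapped between groups (adjusted p = 0.22). Kdm1b and Kdm5b had adjusted p of 0.21 and 0.51.

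Among the 6 H3K9 demethylases named Kdm3 or Kdm4, Kdm3a rose. Kdm3a (ENSMUSG00000053470, chromosome 6, 71588972 to 71632990, minus strand), which removes mono- and dimethylation of H3K9 and is known to be induced by hypoxia, had 9.37, 8.20 and 10.6 FPKM in tMCAO 1, 2 and 3, against 5.74, 7.40 and 5.89 FPKM in Sham 1, 2 and 3. The groups did not overlap, though tMCAO 2 lay close to Sham 2, and Sham 2 and tMCAO 3 were the highest of their groups (log2 fold change 0.50, SE 0.12, limma adjusted p = 0.038). The call held with these libraries both left out and was lost without Sham 1, 2 or 3, tMCAO 1 or tMCAO 3 singly (adjusted p up to 0.14). Its homologue Kdm3b had 4.83 ± 0.370 FPKM in tMCAO and 4.91 ± 0.263 FPKM in Sham (adjusted p = 0.88), with 24.6% of its exon length shared with an antisense gene. Kdm4a, which demethylates H3K9 and H3K36, was higher without overlap and did not pass (11.9 ± 0.579 FPKM in tMCAO and 10.5 ± 0.109 FPKM in Sham, adjusted p = 0.12). Kdm4b, the most abundant demethylase per length, had 13.1, 14.0 and 16.8 FPKM in tMCAO 1, 2 and 3, against 12.97, 14.1 and 12.0 FPKM in Sham 1, 2 and 3 (adjusted p = 0.34), and Kdm4c and Kdm4d did not pass either. Kdm4d was the least abundant tested enzyme, at 0.848 ± 0.140 FPKM in tMCAO and 0.604 ± 0.152 FPKM in Sham, and is close in name to Kdm4dl, which was at 0.469 ± 0.189 FPKM in tMCAO and 0.520 ± 0.111 FPKM in Sham. If the 2 genes share reads, the level of Kdm4d is uncertain.

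No enzyme of H3K36 passed. Setd2, which trimethylates H3K36, had 8.33, 8.03 and 8.59 FPKM in tMCAO 1, 2 and 3, against 8.43, 8.60 and 8.89 FPKM in Sham 1, 2 and 3 (log2 fold change -0.05, SE 0.07, limma adjusted p = 0.62, 95% interval -0.20 to 0.11). The demethylases Kdm2a and Kdm2b had log2 fold changes of -0.03 and -0.01, with 95% intervals of -0.21 to 0.15 and -0.22 to 0.19. Setd3, an actin histidine methyltransferase and the most abundant of the Kmt, Setd and Ezh genes, had 28.2 ± 1.42 FPKM in tMCAO and 27.3 ± 0.949 FPKM in Sham (adjusted p = 0.66). Of the other demethylases, Kdm8 had 1.75 ± 0.252 FPKM in tMCAO and 2.31 ± 0.154 FPKM in Sham and was lower without overlap (adjusted p = 0.10), and Kdm7a had an adjusted p of 0.59. Setd4 and Setd6, with log2 fold changes of 0.18 and -0.12, overlapped between groups.

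Of the 3 H4K20 methyltransferases, Kmt5c fell. Kmt5c (ENSMUSG00000059851, chromosome 7, 4740115 to 4747514, plus strand), known as SUV4-20H2, trimethylates H4K20 in heterochromatin and had 3.07, 3.41 and 3.10 FPKM in tMCAO 1, 2 and 3, against 5.72, 5.38 and 4.51 FPKM in Sham 1, 2 and 3. All tMCAO libraries lay below all Sham libraries (log2 fold change -0.56, SE 0.10, limma adjusted p = 0.018, ratio of means 0.614). It no longer passed without Sham 1, 2 or 3, nor without the pair Sham 2 and tMCAO 3 (adjusted p up to 0.077). Kmt5a, which adds the first methyl group, had 9.79, 11.8 and 7.84 FPKM in tMCAO 1, 2 and 3, against 8.18, 7.54 and 7.74 FPKM in Sham 1, 2 and 3, with tMCAO 2 the highest and the groups overlapping (log2 fold change 0.28, SE 0.13, limma adjusted p = 0.18), and it passed as higher with library weights and without tMCAO 3. Kmt5b was at 3.98 ± 0.137 FPKM in tMCAO and 4.23 ± 0.130 FPKM in Sham and lower without overlap (adjusted p = 0.50).

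No acetyltransferase of 10 tested passed limma, and 1 of them had an unadjusted p below 0.05, against 6317 of all 17561 tested genes. That gene was Kat6a (MOZ), with 7.55, 8.42 and 8.42 FPKM in tMCAO 1, 2 and 3, against 9.52, 9.61 and 9.75 FPKM in Sham 1, 2 and 3. It was lower without overlap (log2 fold change -0.22, SE 0.07, limma adjusted p = 0.074) and passed with library weights only. Ep300 and Crebbp encode the paralogous coactivators p300 and CBP. Ep300 had 5.88, 6.09 and 7.06 FPKM in tMCAO 1, 2 and 3, against 6.62, 6.97 and 6.83 FPKM in Sham 1, 2 and 3 (log2 fold change -0.09, SE 0.08, limma adjusted p = 0.46). Crebbp had 5.78, 6.51 and 7.28 FPKM in tMCAO 1, 2 and 3, against 5.89, 6.00 and 5.77 FPKM in Sham 1, 2 and 3 (log2 fold change 0.12, SE 0.09, limma adjusted p = 0.36). Both overlapped between groups, with 95% intervals of -0.29 to 0.11 and -0.09 to 0.34. Kat2b (PCAF) had 6.54 ± 0.256 FPKM in tMCAO and 6.33 ± 0.325 FPKM in Sham, adjusted p = 0.71. Kat5 (TIP60) was listed highest of the family, at 27.3 ± 1.06 FPKM in tMCAO and 29.5 ± 1.72 FPKM in Sham (limma adjusted p = 0.30). Its FPKM do not give whole reads at the exon length of 3509 bases in GENCODE M21. The shortest length that gives them is 1004 bases, and multiples of it would as well, so its level is not comparable with the others. Kat2a, Kat6b, Kat7, Kat8 and Kat14 overlapped between groups too, with log2 fold changes from -0.22 (Kat6b) to 0.11 (Kat14).

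Of 11 zinc-dependent deacetylases, 1 fell (7.28% of all genes were called lower), and 6 were lower and none higher without overlap (20.3% and 23.1% of all genes). The gene that fell was Hdac9 (ENSMUSG00000004698, chromosome 12, 34047580 to 34917095, minus strand), a class IIa deacetylase that binds MEF2 transcription factors and represses their targets. It had 1.61, 2.18 and 1.59 FPKM in tMCAO 1, 2 and 3, against 3.64, 3.39 and 3.68 FPKM in Sham 1, 2 and 3. All tMCAO libraries lay far below all Sham libraries (log2 fold change -0.72, SE 0.10, limma adjusted p = 0.013, ratio of means 0.502), the smallest adjusted p among the 69 enzymes. The call held in 15 of 17 alternatives and was lost without Sham 1 and without Sham 3 (adjusted p up to 0.071). Hdac5, another class IIa gene, had 13.6, 14.9 and 10.04 FPKM in tMCAO 1, 2 and 3, against 16.5, 16.5 and 15.7 FPKM in Sham 1, 2 and 3 (log2 fold change -0.33, SE 0.13, limma adjusted p = 0.12). Hdac7, a class IIa gene known from endothelium, was at 5.50 ± 0.116 FPKM in tMCAO and 6.34 ± 0.204 FPKM in Sham (adjusted p = 0.11), and both were lower without overlap. Endothelial markers summed to 38.5 to 58.3 FPKM in tMCAO and 50.3 to 53.4 FPKM in Sham, 2 of 6 were lower, and their part in the Hdac7 values was not tested. Hdac4 had 3.62, 3.32 and 3.83 FPKM in tMCAO 1, 2 and 3, against 3.32, 3.69 and 3.47 FPKM in Sham 1, 2 and 3, with overlapping groups (log2 fold change 0.03, SE 0.08, limma adjusted p = 0.81, 95% interval -0.16 to 0.22). For Hdac4, 22.4% of the exon length is shared with Gm26720 on the opposite strand.

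Class I deacetylases, which include the nuclear enzymes of the Sin3, NuRD and NCoR corepressor complexes, did not pass limma (0 of 4). At an unadjusted p below 0.05 there were 0 of them, against 6317 of all 17561 tested genes, and voom called none. Hdac1 was at 7.13 ± 0.934 FPKM in tMCAO and 7.73 ± 0.771 FPKM in Sham and Hdac2 at 16.7 ± 1.30 FPKM in tMCAO and 18.9 ± 0.554 FPKM in Sham (adjusted p = 0.52 and 0.16). Hdac2 was lower in every tMCAO library than in every Sham library. Hdac3, the catalytic subunit of the NCoR complex, had 23.8 ± 1.74 FPKM in tMCAO and 22.0 ± 0.925 FPKM in Sham (adjusted p = 0.34), and Hdac8 1.73 ± 0.227 FPKM in tMCAO and 2.15 ± 0.0674 FPKM in Sham (adjusted p = 0.14). Hdac6, a cytoplasmic tubulin deacetylase, had 8.94 ± 0.397 FPKM in tMCAO and 10.2 ± 0.372 FPKM in Sham (adjusted p = 0.13), and Hdac10 3.94 ± 0.836 FPKM in tMCAO and 3.94 ± 0.182 FPKM in Sham (adjusted p = 0.96). Hdac11, the class IV deacetylase, was the most abundant of all 72 enzymes per length, at 62.6, 54.2 and 58.3 FPKM in tMCAO 1, 2 and 3, against 55.5, 49.0 and 51.8 FPKM in Sham 1, 2 and 3. Its groups overlapped (log2 fold change 0.16, SE 0.08, limma adjusted p = 0.21), and 17.9% of its exon length is shared with antisense genes.

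Sirtuins use NAD to remove acyl groups, and Sirt3, Sirt4 and Sirt5 act in mitochondria. Sirt5 (ENSMUSG00000054021, chromosome 13, 43365496 to 43395203, plus strand), which removes succinyl groups, fell and had 1.12, 1.55 and 1.23 FPKM in tMCAO 1, 2 and 3, against 1.91, 1.94 and 2.01 FPKM in Sham 1, 2 and 3. The groups did not overlap (log2 fold change -0.36, SE 0.09, limma adjusted p = 0.044). Its call was lost in 8 of 16 alternatives, among them quantile normalization, no filter, and leaving out any library except tMCAO 2 (adjusted p up to 0.16). Sirt4 had 4.28, 6.26 and 5.96 FPKM in tMCAO 1, 2 and 3, against 7.73, 8.02 and 6.99 FPKM in Sham 1, 2 and 3, lower without overlap (log2 fold change -0.41, SE 0.13, limma adjusted p = 0.074). Sirt3, the main mitochondrial deacetylase, had 7.17 ± 0.416 FPKM in tMCAO and 6.49 ± 0.236 FPKM in Sham (adjusted p = 0.26). Sirt1, the nuclear deacetylase, had 4.75, 4.44 and 4.40 FPKM in tMCAO 1, 2 and 3, against 3.67, 3.88 and 3.78 FPKM in Sham 1, 2 and 3, higher without overlap (log2 fold change 0.21, SE 0.07, limma adjusted p = 0.086), and passed with library weights only. Sirt2, an oligodendrocyte-enriched tubulin deacetylase and the most abundant sirtuin, had 34.2, 31.5 and 29.0 FPKM in tMCAO 1, 2 and 3, against 28.3, 28.1 and 29.2 FPKM in Sham 1, 2 and 3 (log2 fold change 0.14, SE 0.08, limma adjusted p = 0.24). Summed oligodendrocyte markers were likewise highest in tMCAO 1 and lower in tMCAO 2 and 3 (1322, 935 and 659 FPKM, against 791 to 976 FPKM in Sham), and their part in the Sirt2 values was not tested. Sirt6 and Sirt7 had adjusted p of 0.89 and 0.15.

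No DNA-modifying gene of 5 tested passed limma. Tet1 had an unadjusted p below 0.05 and was called by voom. Dnmt1, the maintenance methyltransferase, had 7.09, 8.61 and 10.01 FPKM in tMCAO 1, 2 and 3, against 9.32, 9.78 and 9.31 FPKM in Sham 1, 2 and 3 (log2 fold change -0.14, SE 0.12, limma adjusted p = 0.41). Dnmt3a, the de novo methyltransferase of neurons, had 4.62, 4.61 and 6.02 FPKM in tMCAO 1, 2 and 3, against 5.99, 7.16 and 5.87 FPKM in Sham 1, 2 and 3. tMCAO 3 lay among the Sham libraries and the other tMCAO libraries below them (log2 fold change -0.27, SE 0.12, limma adjusted p = 0.15), and Dnmt3a passed as lower without tMCAO 3 and with library weights. The 3 enzymes below the filter were Dnmt3b, Dnmt3c and Dnmt3l. Dnmt3b was at 0.205 ± 0.0221 FPKM in tMCAO and 0.228 ± 0.0775 FPKM in Sham, and Dnmt3c at 0.0358 ± 0.0187 FPKM in tMCAO and 0.0666 ± 0.0188 FPKM in Sham, from 14 reads in all tMCAO libraries and 19 in all Sham libraries. Dnmt3l, a catalytically inactive cofactor, was at 0.205, 0.200 and 0.132 FPKM in tMCAO 1, 2 and 3, against 0.0255, 0.0162 and 0.0438 FPKM in Sham 1, 2 and 3, from 95 reads in tMCAO and 11 in Sham, and without a filter limma called it higher. Aire on the opposite strand shares 2.24% of its exons.

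Tet1 had 0.782, 0.714 and 0.852 FPKM in tMCAO 1, 2 and 3, against 1.12, 1.16 and 1.08 FPKM in Sham 1, 2 and 3. It was lower in each tMCAO library without overlap and missed the threshold (log2 fold change -0.25, SE 0.08, limma adjusted p = 0.068), passing with library weights and with voom on recovered reads. Tet2 had 4.26, 3.29 and 5.52 FPKM in tMCAO 1, 2 and 3, against 3.40, 3.71 and 3.64 FPKM in Sham 1, 2 and 3, tMCAO 3 being the highest and tMCAO 2 the lowest (log2 fold change 0.20, SE 0.15, limma adjusted p = 0.36). Tet3, the most abundant Tet gene on the mean, had 3.88, 3.81 and 4.28 FPKM in tMCAO 1, 2 and 3, against 4.28, 4.63 and 4.22 FPKM in Sham 1, 2 and 3 (log2 fold change -0.11, SE 0.08, limma adjusted p = 0.35).

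**Figure D3:**
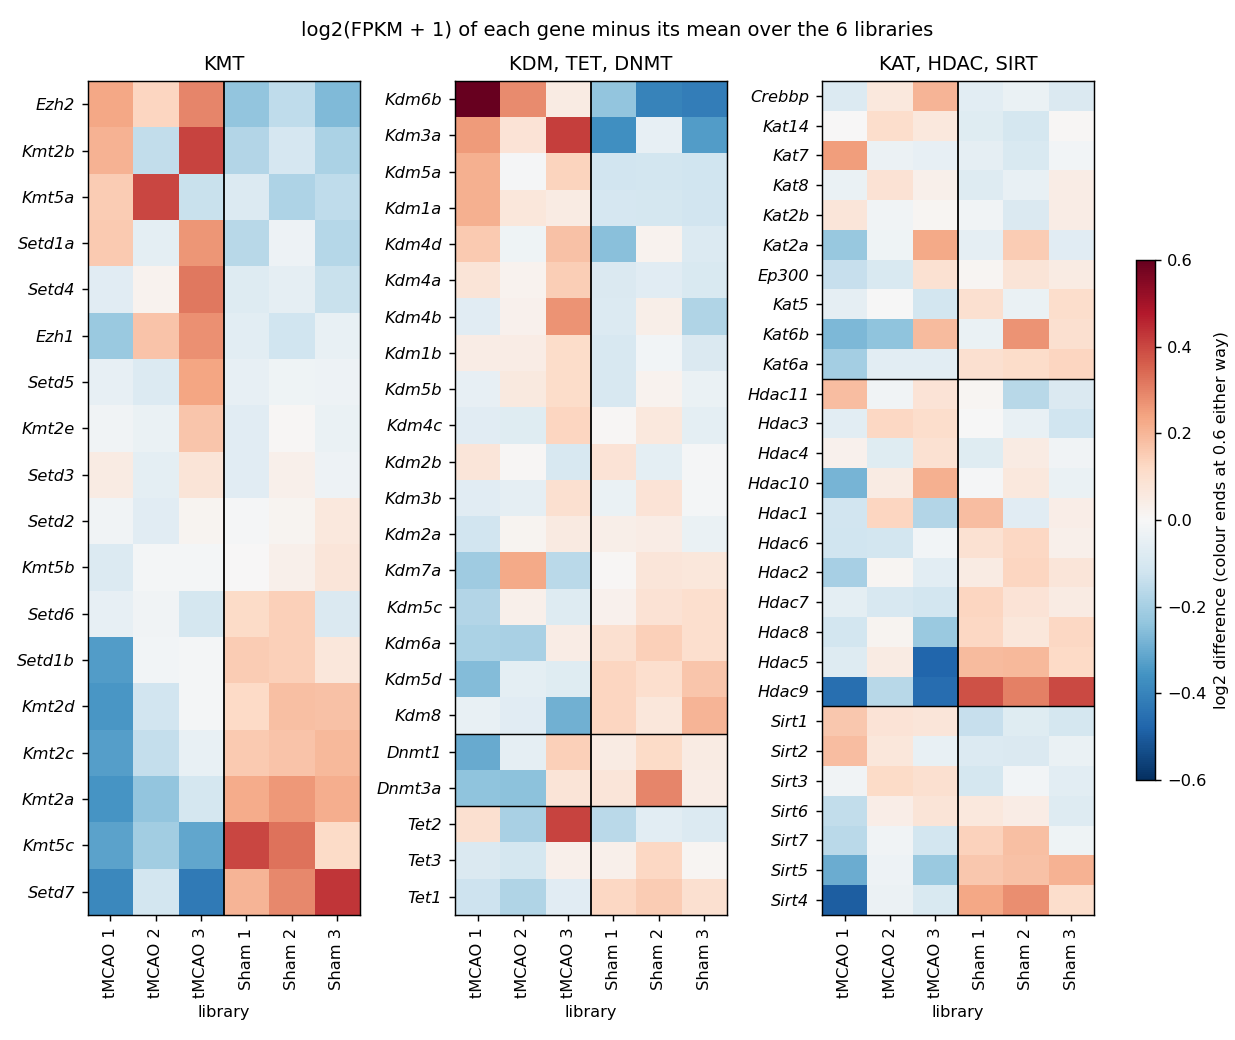
log2(FPKM + 1) of each tested enzyme minus its mean over the 6 libraries, with tMCAO columns left and Sham columns right of the line. The columns of a group are not alike: tMCAO 3 is high for Kmt2b, Kdm3a and Tet2, which lie at 14.3, 10.6 and 5.52 FPKM there, and tMCAO 1 is low for Kmt2c, Kmt2d and Sirt4.

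Ratios of related genes within a library do not depend on how libraries are scaled. In 10 of 18 pairs of close relatives, chosen after the values had been seen, the ratio did not overlap between groups, and the ratios are given as a description. Of all single genes 43.4% did not overlap, and the share among ratios of other genes was not computed. The Ezh2 over Ezh1 ratio was 0.194, 0.129 and 0.142 in tMCAO 1, 2 and 3, against 0.0966, 0.113 and 0.0914 in Sham 1, 2 and 3. Kdm6b over Kdm6a was 3.86, 2.77 and 1.88 in tMCAO 1, 2 and 3, against 1.43, 1.21 and 1.24 in Sham 1, 2 and 3. Both ratios were thus higher in each tMCAO library than in each Sham library. In every library of both groups Ezh1 stayed above Ezh2 and Kdm6b above Kdm6a. Kmt2a over Kmt2b was 0.798, 1.14 and 0.836 in tMCAO 1, 2 and 3, against 1.65, 1.60 and 1.66 in Sham 1, 2 and 3. Hdac9 over Hdac4 was 0.443, 0.655 and 0.415 in tMCAO 1, 2 and 3, against 1.09, 0.918 and 1.06 in Sham 1, 2 and 3. Both were lower in each tMCAO library. Ep300 over Crebbp was 1.02, 0.936 and 0.969 in tMCAO 1, 2 and 3, against 1.12, 1.16 and 1.18 in Sham 1, 2 and 3, without overlap while neither gene passed limma. Kmt2c over Kmt2d, by contrast, was 0.819, 0.794 and 0.792 in tMCAO 1, 2 and 3, against 0.841, 0.811 and 0.828 in Sham 1, 2 and 3, with overlapping groups.

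**Figure D4:**
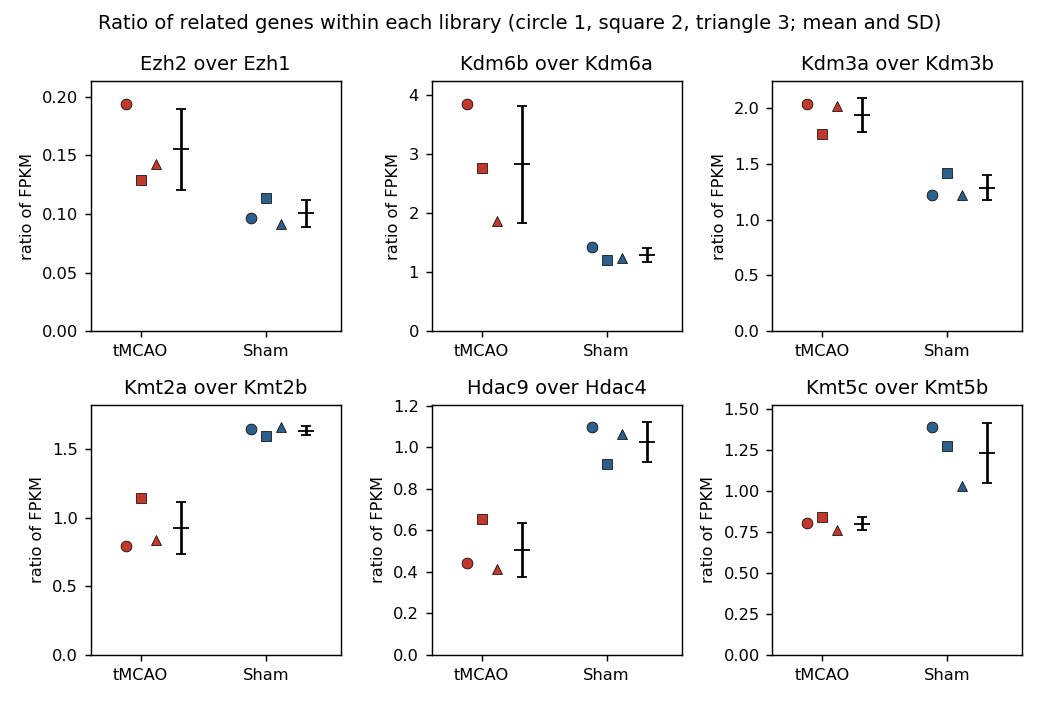
Ratio of the FPKM of related enzymes in each library, with the mean and SD (n = 3) beside the points. The ratios with Ezh2, Kdm6b and Kdm3a on top are higher in all tMCAO libraries, and those with Kmt2a, Hdac9 and Kmt5c on top are lower in all of them.

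Many of the enzymes have long transcripts, and in these libraries longer genes tended to lower values in tMCAO. The median exon length implied by the FPKM was 6795 bases for the 69 enzymes and 4329 bases for all tested protein-coding genes, and 25 enzymes fell in the longest of 10 length classes (9753 bases and more). In that class the median log2 fold change was -0.09 over the enzymes and -0.12 over all 1373 genes, and 33 genes were called higher and 163 lower. The 4 enzymes called there, Hdac9, Kmt2a, Kmt2c and Setd7, all fell. Across the 69 enzymes Spearman's rho between exon length and log2 fold change was -0.19, and -0.20 across protein-coding genes, which share the same libraries and are not independent replicates. The part of length in the fall of these 4 genes was not tested.

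**Figure D5:**
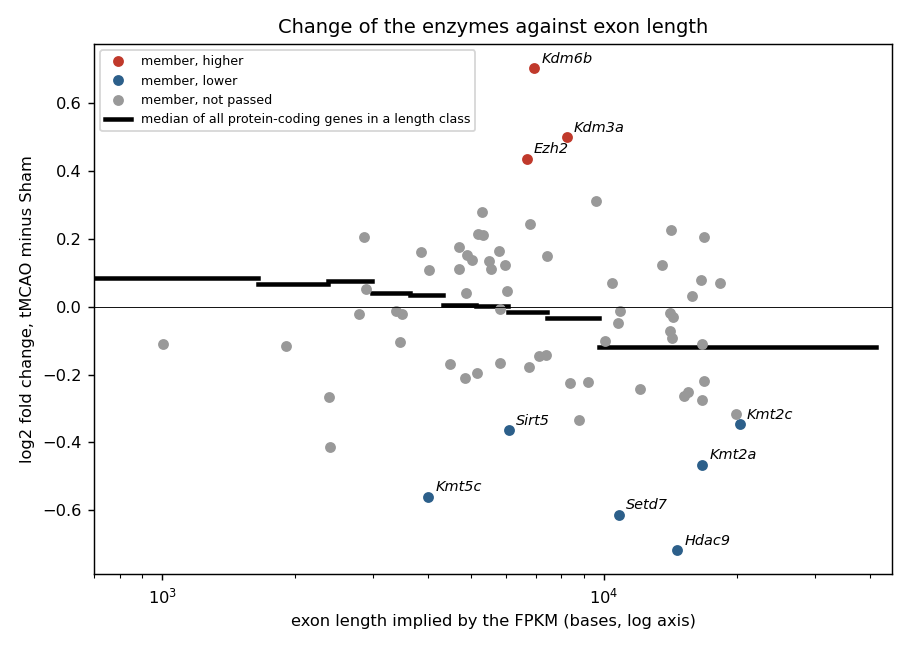
log2 fold change of the 69 enzymes against exon length (log axis), with black bars for the median of all tested protein-coding genes in each of 10 length classes. The bars run from 0.09 in the shortest to -0.12 in the longest class, where Hdac9, Kmt2a, Kmt2c and Setd7 lie below the bar.

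The partners with which these enzymes work were read from 9 lists of other chromatin genes: 25 of 163 tested genes passed (15.3%), 17 higher and 8 lower, also near the share of all genes. Leaving out Sham 1, Sham 2 or Sham 3 left 1 passing each time, leaving out tMCAO 1, 2 or 3 left 15, 21 and 34, and without Sham 2 and tMCAO 3 together 11 passed. Polycomb partners included 3 of 27 that rose and none that fell, where 8.93% of all genes were called higher and 7.28% lower. Rnf2, the ubiquitin ligase of Polycomb complex 1, had 11.6 ± 1.28 FPKM in tMCAO and 7.43 ± 0.242 FPKM in Sham. Rbbp7 and Rbbp4 are histone chaperones shared by Polycomb complex 2 and the deacetylase complexes. Rbbp7 had 53.5 ± 5.35 FPKM in tMCAO and 39.1 ± 0.508 FPKM in Sham, and Rbbp4 had 15.4 ± 1.01 FPKM in tMCAO and 11.6 ± 0.256 FPKM in Sham. The adjusted p was 0.015 for Rnf2, 0.022 for Rbbp7 and 0.021 for Rbbp4 (limma). Of the exon length of Rbbp4, 18.1% is shared with antisense genes.

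Of 25 corepressors of the deacetylases, 4 rose and 1 fell (8.93% and 7.28% of all genes). Sap30, a Sin3 complex subunit, had a larger log2 fold change in limma than any of the 69 tested enzymes. It had 9.36, 7.04 and 7.20 FPKM in tMCAO 1, 2 and 3, against 2.99, 2.94 and 2.11 FPKM in Sham 1, 2 and 3. Each tMCAO library was above 7 FPKM and each Sham library below 3 FPKM (log2 fold change 1.27, SE 0.14, limma adjusted p = 0.0090). The NuRD subunits Gatad2a and Mta2 rose as well (adjusted p = 0.020 and 0.029). Gatad2a had 7.10 ± 0.623 FPKM in tMCAO and 4.98 ± 0.0528 FPKM in Sham, and Mta2 had 16.3 ± 1.64 FPKM in tMCAO and 11.9 ± 0.694 FPKM in Sham. Chd3, a NuRD remodeller, fell, with 61.5 ± 2.04 FPKM in tMCAO and 75.9 ± 3.58 FPKM in Sham (adjusted p = 0.033).

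In the list of methyl-CpG readers and DNA demethylation partners, 2 of 16 rose and 2 fell (8.93% and 7.28% of all genes). Gadd45b, an immediate early gene linked to DNA demethylation in neurons, had 33.7, 17.4 and 11.2 FPKM in tMCAO 1, 2 and 3, against 4.83, 4.98 and 5.60 FPKM in Sham 1, 2 and 3, with tMCAO 1 the highest and tMCAO 3 the lowest of its group, as for Kdm6b (log2 fold change 1.69, SE 0.34, limma adjusted p = 0.024). Mbd2 was higher, and Zbtb4 and Cxxc5 lower, with log2 fold changes of 0.41, -0.31 and -0.38 (adjusted p = 0.025, 0.025 and 0.023). COMPASS partners, core and accessory subunits of the Kmt2 and Setd1 complexes, had 1 gene of 11 in each direction. Wdr5 was at 10.1 ± 0.593 FPKM in tMCAO and 7.38 ± 0.192 FPKM in Sham. Ash2l was at 3.61 ± 0.340 FPKM in tMCAO and 5.23 ± 0.212 FPKM in Sham (limma adjusted p = 0.019 and 0.022).

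The counts of the remaining lists likewise stand beside 8.93% of all genes called higher and 7.28% called lower. Of 31 acetyltransferase complex subunits 3 rose and 2 fell. The log2 fold changes were 0.32, 0.34 and 0.49 for Epc2, Epc1 and Tada2b and -0.36 for Supt20 (limma adjusted p = 0.025, 0.036, 0.042 and 0.034). Antisense genes share 10.8% of the exon length of Tada2b and 11.8% of that of Supt20. Of 16 acetyl readers 2 rose, the bromodomain gene Brd2 with 34.4 ± 3.06 FPKM in tMCAO and 26.2 ± 0.808 FPKM in Sham and Brpf1 with 7.14 ± 0.495 FPKM in tMCAO and 5.61 ± 0.120 FPKM in Sham (adjusted p = 0.029 and 0.040), and antisense genes share 9.78% of the exon length of Brd2. Among 10 arginine methyltransferases, Prmt8, a brain-specific gene, fell, with 18.5 ± 2.25 FPKM in tMCAO and 26.9 ± 1.88 FPKM in Sham (adjusted p = 0.022). Of 16 other lysine methyltransferases, Setdb2 rose, with 2.55 ± 0.289 FPKM in tMCAO and 1.33 ± 0.0620 FPKM in Sham (adjusted p = 0.014). In the JmjC list Jmjd6 rose and Riox2 fell, 1 of 11 each, with log2 fold changes of 0.46 and -0.59 (adjusted p = 0.021 and 0.023). Riox2 shares 22.4% of its exon length with Crybg3 on the opposite strand.

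The authors' deposited table of their own comparison, whose test is not named in the sources, lists 71 of the enzymes and gives 14 of them an adjusted p below 0.05, against 20.2% of its 22647 genes. Its 14 include all 9 genes above and add Dnmt3l (higher in tMCAO) and Kdm5d, Kmt2d, Sirt4 and Tet1 (lower in tMCAO). Its log2 fold change, which runs Sham over tMCAO, is -2.63 for Dnmt3l and -0.83 for Kdm6b in the authors' deposited table, both higher in tMCAO.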

How the data were processed

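RNA-seq of poly(A)-selected RNA was available for 3 tMCAO and 3 Sham samples. The deposited values are FPKM computed by the authors, for 53465 genes in all and for 22647 genes in the table of their comparison. Per the submitters' processing notes the build was mm10. The aligner, the counter and the use of strand are not named there. The comparison table also holds the authors' deposited log2 fold change, p-value and adjusted p-value, with the sign Sham over tMCAO. Sham columns were matched by title, while tMCAO columns name the group only, so tMCAO 1 to 3 are column numbers.

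Limma 3.58.1 in R 4.3.3 (lmFit, eBayes with trend, two-sided, Benjamini-Hochberg adjustment) was run on log2(FPKM + 1) of the 17561 genes of the comparison table with a mean of at least 0.5 FPKM. Exact permutation tests used all 20 assignments. Whole reads were recovered from the steps of the FPKM with exon lengths of GENCODE M21 (36451 of 36452 genes above 0; trivially so in genes seen in few libraries), which gave the depths. The fit was tested on simulated data. The members, lists and alternatives were chosen with earlier results of these data known.

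Genes named with full values are all members past the threshold, a fixed set of 23 well-known members, the most abundant member of each family, members below the filter, and up to 4 genes of each partner list by adjusted p. Other members given with their values in each library, those whose groups did not overlap among them, were chosen after their values were seen. Alternatives were another pseudocount, 2 other filters, 3 other scalings, eBayes without trend, library weights, the table of all genes, voom on the recovered reads, leaving out each library, and leaving out Sham 2 and tMCAO 3.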

Additional observations from a re-analysis of the deposited data

How the results depend on the processing

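No paired analysis was possible because the tMCAO columns carry no sample name and the labels give no number shared between the groups. With library weights the calls rose to 4913 genes, 18 enzymes and 41 partners, against 2847, 9 and 25. Leaving out 1 library at a time gave 75 to 3896 genes, 0 to 11 enzymes and 1 to 34 partners. Without Sham 2 and tMCAO 3 together the calls were 5 enzymes and 11 partners. Each other alternative gave 7 to 11 enzymes. Of the enzymes recomputed singly, 3 changed sign, none of them called in any setting. Hdac4 (log2 fold change 0.03) was at -0.026 with rescaled libraries, -0.0032 with library weights and from -0.0069 (without tMCAO 3) to 0.073 (without tMCAO 2) when 1 library was left out. Kat2b (0.04) was at -0.021 rescaled and -0.0019 with library weights, and Setd3 (0.05) at -0.024 rescaled and -0.0034 after quantile normalization. The 9 enzymes called were also called with a pseudocount of 0.1, with rescaled libraries, with median-of-ratios factors, without trend, in the table of all genes and with voom. At a mean of at least 2 FPKM, Ezh2 and Sirt5 were not tested. No scaling moved the median log2 fold change of all genes by more than 0.06. The tested enzyme with the fewest reads had 656 over the 6 libraries, and the part of the deeper tMCAO libraries in the results was not tested. Standard errors of 0.066 to 0.17 on the log2 scale with 3 libraries a group leave small differences undetectable.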
